A study of Mus musculus with 21 samples.

Results

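The cytochrome P450 genes outside the CYP1 family were described across 7 groups of mouse lung libraries. Of the 38924 gene symbols in the count table, 104 named a cytochrome P450, and 12 of these were left out: Cyp1a1, Cyp1a2, Cyp1b1, Cyp2f2 and symbols marked as pseudogenes. Of the other 92 symbols, 35 had 10 or more counts in at least 3 of the 21 libraries and were taken as members. The remaining 57 did not meet the rule, and 24 of them stood at 0 in every library. Members were thus chosen by their own counts in these libraries, and their presence in lung is a property of the rule, not a finding. A total of 20 members had 10 or more counts in all 21 libraries. Without the LPS libraries Cyp27b1 and Cyp21a1 would not have met the rule, nor Cyp2a4 without the I3C libraries, so their higher values there are described with no test. At the edge of the rule, Cyp27b1 passed with exactly 3 libraries, all of them LPS libraries (13, 11 and 20 counts), and Cyp2r1 passed with 10 counts in 1 LPS library, 16 in 1 I3C library and 14 in 1 Sil_I3C library. Just outside it, Cyp2c40 had 12 counts in 1 NNK_LPS and 12 in 1 Sil library, and Cyp4a14 had 12 counts in 1 NNK_LPS and 10 in 1 Sil library.

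The study compared female A/J mice at 22 weeks after treatment, by RNA-seq of 3 libraries in each group. Control mice received the vehicle alone. NNK mice received the tobacco carcinogen NNK (a nitrosamine) once at 100 mg/kg in 0.1 ml by intraperitoneal injection. LPS mice received bacterial lipopolysaccharide, 5 µg per mouse in 50 µL by the nose, 1 time a week from 1 week after the NNK date, and NNK_LPS mice received both. The Sil, I3C and Sil_I3C groups also received NNK and LPS, with silibinin, indole-3-carbinol or both in the diet at 20 µmol/g each. RNA came from dissected tumours, pooled from 3 mice a group, in all groups given NNK, and from normal lung in Control and LPS. An effect of NNK therefore cannot be told apart from the difference between a tumour and normal lung. Nothing in the labels ties the replicate libraries to separate animals, so p-values measure the spread between libraries, which may be technical. In such bulk samples, fewer cells of a type and less RNA per cell cannot be told apart.

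Cytochrome P450 enzymes are haem proteins that insert oxygen into their substrates, with electrons supplied by the reductase Por in the endoplasmic reticulum or by ferredoxin in mitochondria. In the lung, members of the CYP2 and CYP4 families oxidise inhaled chemicals, including carcinogens such as NNK, and turn fatty acids into eicosanoid mediators, chiefly in club and alveolar type 2 cells. Other families act on endogenous substrates: vitamin D, retinoic acid, bile acids, oxysterols and steroid hormones.

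Several results below turn on genes that are nearly identical to a relative, so the sequences that separate them are given first. Cyp2a5, a coumarin and nicotine hydroxylase that also activates NNK, and Cyp2a4, a testosterone hydroxylase, lie on chromosome 7 at 26835305 to 26843548 and 26307169 to 26315088 (GRCm38, plus strand). Their coding sequences were 98.4% identical, with 23 substitutions in 1482 aligned bases. The 250 bases before each RefSeq start (GRCm38.p6, chr7:26306942-26307191 and chr7:26835089-26835338) were also 98.4% identical over 249 aligned bases, and capitals mark the 4 substituted bases.
Cyp2a4: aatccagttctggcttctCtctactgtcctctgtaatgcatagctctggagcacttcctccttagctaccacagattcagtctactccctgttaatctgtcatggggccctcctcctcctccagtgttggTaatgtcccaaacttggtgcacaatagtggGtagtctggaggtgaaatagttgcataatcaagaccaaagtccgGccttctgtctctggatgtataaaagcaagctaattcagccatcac
Cyp2a5: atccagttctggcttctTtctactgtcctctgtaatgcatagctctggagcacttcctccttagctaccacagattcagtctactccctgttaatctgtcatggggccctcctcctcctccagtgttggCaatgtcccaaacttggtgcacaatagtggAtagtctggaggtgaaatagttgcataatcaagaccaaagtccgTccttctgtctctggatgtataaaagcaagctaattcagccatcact

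Cyp4a12a and Cyp4a12b, omega-hydroxylases of fatty acids, lie on chromosome 4 at 115299046 to 115332815 and 115411624 to 115439034 (GRCm38, plus strand). Their coding sequences were 98.5% identical, with 23 substitutions in 1524 bases. The stretch of 60 coding bases with the most differences, bases 624 to 683 of the GENCODE coding sequence, holds 4 of them, shown in capitals.
Cyp4a12a: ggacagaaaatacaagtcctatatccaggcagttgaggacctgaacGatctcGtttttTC
Cyp4a12b: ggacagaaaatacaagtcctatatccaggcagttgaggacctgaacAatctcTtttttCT

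Of all windows of 50 bases in the GENCODE transcripts of Cyp4a12a, 48.9% also occurred in Cyp4a12b, and 38.0% of the windows of Cyp2a4 occurred in another gene. The sources used here give no rule for counting reads that match both genes, so the split within each pair is uncertain and the summed counts are given beside it.

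The last sequence is the promoter of Cyp51, the lanosterol demethylase of cholesterol synthesis, shown because it holds the sterol regulatory element described in this gene itself, so its match here is no finding. A total of 26 members had a promoter in the RefSeq table. The element, searched on both strands in the 250 bases before the start, occurred in 0.0426% of 32851 promoters and in no other of the 26 members. Its letters are the capitals in the sequence below, 89 to 80 bases before the start (minus strand, chr5:4104698-4104947, GRCm38.p6). The core of the xenobiotic response element, GCGTG, occurred in 9 of the 26 members and in 28.2% of all promoters. In Cyp51 it lies 75 to 71 bases before the start and does not overlap the sterol element.
Cyp51: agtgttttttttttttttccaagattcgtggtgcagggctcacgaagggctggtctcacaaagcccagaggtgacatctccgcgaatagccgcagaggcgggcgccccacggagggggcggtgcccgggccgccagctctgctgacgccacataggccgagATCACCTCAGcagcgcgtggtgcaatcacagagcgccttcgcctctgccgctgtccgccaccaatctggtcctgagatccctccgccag

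Libraries held 13.3 to 25.3 M counts. They fell into 3 sets by mt-Atp8 counts as a ratio to those of mt-Atp6, which was 0.0206 to 0.0236 in Control, NNK and LPS 1 and 2 (set A), 0.0782 to 0.0876 in LPS 3, NNK_LPS, Sil and I3C 1 (set B), and 0.117 to 0.135 in I3C 2 and 3 and Sil_I3C (set C). The labels name no such sets, and calls that a fit within a set or with a term for it ended are named with their comparison. Levels below are in CPM, each gene's count scaled to a library total of 1 M after TMM scaling, where M is mega. Of 15770 genes tested in 1 edgeR quasi-likelihood fit over all libraries, 33 were members. Cyp2b19, a skin epoxygenase, and Cyp2r1, a vitamin D hydroxylase, were too low to be tested. A gene was called at a Benjamini-Hochberg adjusted p under 0.05, and values after ± in fold changes are standard errors.

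In Control lung, Cyp4b1, which activates furan toxins in the lung, had the highest level per length, at 400 ± 36 CPM per kilobase of exon (SD, n = 3). Cyp2b10, a phenobarbital-inducible xenobiotic enzyme, followed at 246 ± 40.1 CPM per kilobase. The ranges of these leading genes did not overlap. Cyp2a5 (42.1 ± 5.67 CPM per kilobase) and Cyp2s1, an airway epithelial enzyme (39 ± 0.82 CPM per kilobase), did not differ beyond their spread. Cyp4v3, a fatty acid hydroxylase whose human counterpart is mutated in a retinal dystrophy, came next at 17.8 ± 1.21 CPM per kilobase. The other 30 members lay below that level, from Cyp20a1, an enzyme with no settled substrate (13.0 CPM per kilobase), down to Cyp27b1 (0.0264 CPM per kilobase) and Cyp21a1, which had no count in any Control library.

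**Figure D1:**
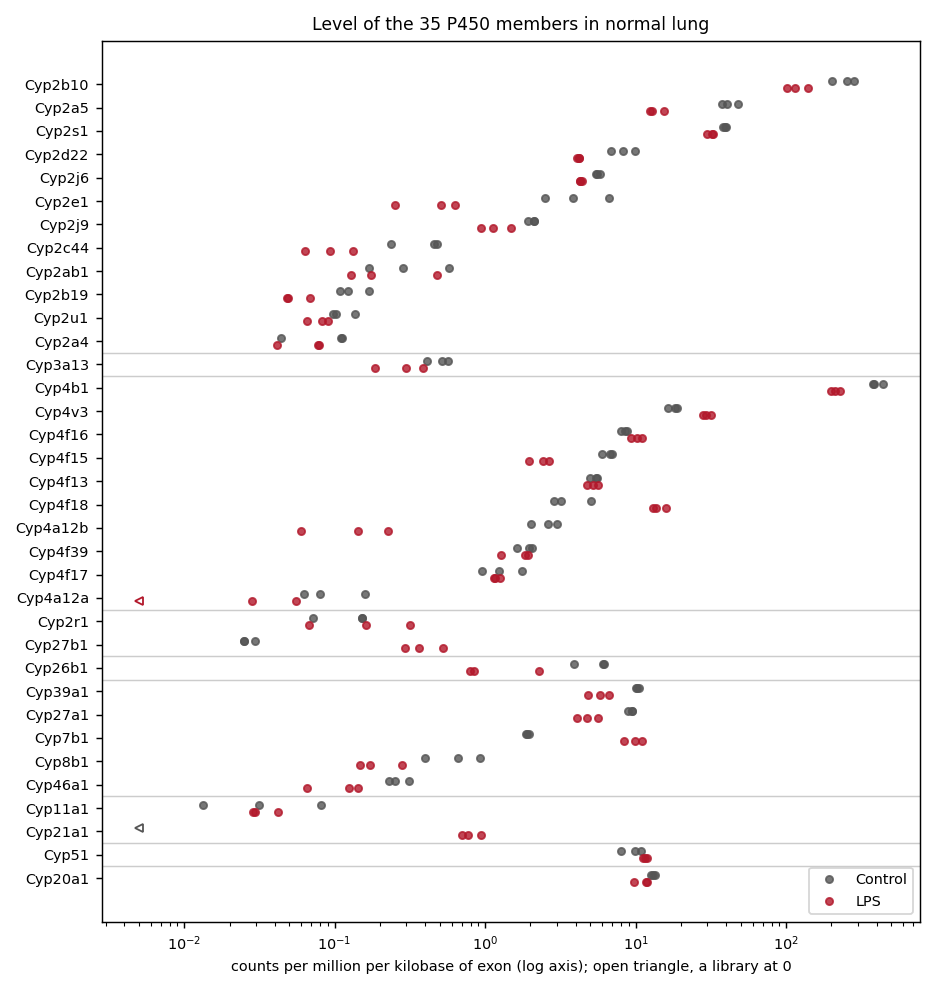
Level of each of the 35 members in Control (grey) and LPS (red) lung, in CPM per kilobase of exon on a log axis; each point is 1 library, open triangles mark libraries at 0, and grey lines separate functional classes. Cyp4b1 and Cyp2b10 lie above all other members in both groups, and Cyp4a12b and Cyp21a1 show the widest gaps between the groups.

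Weekly LPS in normal lung was compared with Control first, since it moved the most members. A total of 22 of the 33 tested members were called, 5 higher and 17 lower (Cyp27b1 and Cyp21a1, among the higher, were chosen through LPS libraries), against 50.0% of all genes tested (25.3% higher and 24.7% lower). The median log2 fold change was -0.49 over the members and -0.02 over all genes. Members of the xenobiotic and epoxygenase class fell in 7 of 11 cases and rose in none. Fatty acid hydroxylases of the CYP4 family moved both ways, with 2 higher and 3 lower of 10.

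Cyp2e1, which oxidises ethanol and other small molecules, stood at 8.27, 5.43 and 14.3 CPM in Control and at 1.36, 1.09 and 0.539 CPM in LPS. The groups did not overlap, and the fall was 9.35-fold (log2 fold change -3.22 ± 0.45, adjusted p = 1.71e-05). Cyp2b10 fell from 596, 534 and 429 CPM to 241, 294 and 215 CPM (-1.05 ± 0.22, adjusted p = 0.000867), again with no overlap. Cyp2d22, the mouse relative of the human drug-metabolising CYP2D enzyme, fell from 26.7 to 38.5 CPM in Control to 16.0 to 16.5 CPM in LPS (-0.99 ± 0.17, adjusted p = 0.000138). Among the makers of epoxy fatty acids, Cyp2c44 fell 3.94-fold, from at most 1.03 CPM, and Cyp2j9 fell 1.74-fold. Cyp2a5 fell from 77.4, 83.9 and 100 CPM to 26.0, 26.8 and 32.2 CPM. Its groups were far apart, but its call (-1.62 ± 0.64, adjusted p = 0.0462) was lost when any 1 of the 6 libraries was left out, as was that of Cyp2j6 (-0.38 ± 0.15, adjusted p = 0.0412). Cyp3a13, a CYP3A enzyme made outside the liver as well, at 1.21 to 1.68 CPM in Control, was called lower (-0.78 ± 0.30, adjusted p = 0.0402) and lost the call in DESeq2 and without Control 1, Control 3, LPS 2 or LPS 3. Cyp2s1, at 188 to 196 CPM in Control and 147 to 161 CPM in LPS, was not called (-0.31 ± 0.15, adjusted p = 0.103).

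Markers of club cells, in which many of these enzymes are known to be made, mostly moved with them. Their summed level was 38100 to 41400 CPM in Control and 14600 to 18700 CPM in LPS, with 5 of 8 called lower and 0 higher. The list includes Cyp2f2, a P450 left out of the members. Scgb1a1 gave most of the sum (26500 to 29200 CPM in Control, 10700 to 14300 CPM in LPS). Muc5b stood higher in every LPS library (166 to 240 CPM, then 297 to 399 CPM). Scgb3a1 overlapped (104 to 132 CPM, then 76.7 to 158 CPM). Alveolar type 2 markers were called lower in 4 of 10 cases and higher in 1 (32600 to 39000 CPM in Control, 23100 to 26300 CPM in LPS). Fibroblast markers were called lower in 4 of 8 cases and higher in 2 (3490 to 4010 CPM, then 1750 to 2000 CPM). Alveolar type 1 markers were called lower in 6 of 7 cases and higher in 1 (6940 to 7390 CPM in Control, 4260 to 4710 CPM in LPS). Endothelial markers were called lower in 10 of 10 (5150 to 5370 CPM, then 2100 to 2450 CPM). Adipocyte markers fell in 7 of 7 cases, from 122 to 144 CPM to 6.52 to 14.7 CPM, and heart muscle markers in 8 of 8, from 493 to 530 CPM to 88.7 to 131 CPM. The part of these tissues in the falls of P450 members was not tested. Hepatocyte markers, the liver being the main P450 organ, summed to at most 6.17 CPM in any library, and Fgb stood at 0 in every group.

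In the CYP4 family, Cyp4b1 fell from 996, 850 and 862 CPM to 514, 475 and 450 CPM (-0.91 ± 0.17, adjusted p = 0.000362). Cyp4a12b fell further, from 4.85, 6.26 and 7.23 CPM to 0.143, 0.341 and 0.539 CPM, a 17.4-fold fall (-4.13 ± 0.56, adjusted p = 1.43e-05). With the counts of Cyp4a12a added, the fall was -3.92 ± 0.61 (adjusted p = 5.85e-05). Cyp4f18 rose from 5.92, 5.30 and 9.43 CPM to 25.3, 29.3 and 24.2 CPM, a 3.81-fold rise (1.93 ± 0.24, adjusted p = 4.38e-06). Cyp4f18 is known in mouse neutrophils as an enzyme that oxidises leukotriene B4. Neutrophil markers rose with it, in 6 of 8 cases, from 37.0 to 102 CPM summed in Control to 866 to 1120 CPM in LPS, and their part in its rise was not tested. Cyp4v3 rose from 62.7 to 71.5 CPM to 106 to 120 CPM (0.73 ± 0.10, adjusted p = 1.82e-05).

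The CYP4F genes did not all move with Cyp4f18. The members Cyp4f39, Cyp4f17, Cyp4f16, Cyp4f15 and Cyp4f13 lie in this order on chromosome 17 between 32452723 and 32947402. Cyp4f18 lies on chromosome 8 (71988482 to 72009626, minus strand). Among the members on chromosome 17 named here, Cyp4f15 alone was called with LPS, falling from 16.0, 15.3 and 13.7 CPM to 6.02, 5.53 and 4.44 CPM (-1.49 ± 0.27, adjusted p = 0.000207). The next member along, Cyp4f13, stood at 22.1 to 24.4 CPM in Control and 21.0 to 24.8 CPM in LPS, and the ranges overlapped. In Cyp4f16, 17.4% of windows of 50 bases also occur in another gene, mostly Cyp4f37.

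Among partners in eicosanoid synthesis and breakdown, 4 of 11 were called higher and 4 lower. Ephx1, an epoxide hydrolase, fell (-1.14 ± 0.08, adjusted p = 2.38e-08), as did Ltc4s, the leukotriene C4 synthase (-1.60 ± 0.20, adjusted p = 4.62e-06). Ptges, a prostaglandin E synthase, rose (2.50 ± 0.24, adjusted p = 4.25e-07), and so did Ltb4r1, the leukotriene B4 receptor (2.27 ± 0.32, adjusted p = 1.79e-05). Of 11 electron donor and haem genes, 3 were higher and 4 lower; Hmox1, which breaks down haem, rose by 2.09 ± 0.12 (adjusted p = 3.84e-09), and Pgrmc1, a haem-binding partner of P450s, changed by -0.90 ± 0.11 (adjusted p = 3.10e-06). Por itself changed by -0.52 ± 0.18 (adjusted p = 0.0226).

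Bile acid and oxysterol enzymes also moved both ways, with 1 of 5 higher and 4 lower. Cyp7b1, which clears side-chain oxysterols and makes the ligand that guides lymphocytes, rose from 4.02, 4.09 and 4.26 CPM to 18.2, 21.4 and 23.7 CPM (2.35 ± 0.35, adjusted p = 3.32e-05). The LPS libraries lay above every other library of the series. Ch25h, which makes the oxysterol that Cyp7b1 acts on, was at 7.21, 6.89 and 6.84 CPM in Control and 84.3, 85.1 and 60.9 CPM in LPS (3.46 ± 0.35, adjusted p = 9.00e-07); it was the only one of 7 tested partners called higher, and Hsd17b4, of peroxisomal side-chain shortening, the only one lower (-0.44 ± 0.06, adjusted p = 1.89e-05). Markers of monocytes and interstitial macrophages were higher too, 8 of 8 of them, from 167 to 207 CPM to 933 to 1030 CPM; their part was not tested.

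Cyp39a1, another oxysterol hydroxylase, fell from 30.9, 32.0 and 31.1 CPM to 17.8, 20.4 and 14.7 CPM (-0.83 ± 0.11, adjusted p = 1.44e-05). Cyp27a1, the mitochondrial sterol hydroxylase that starts the acidic bile acid route, fell from 19.2 to 20.5 CPM to 8.82 to 12.2 CPM (-0.94 ± 0.13, adjusted p = 1.57e-05). The low members Cyp8b1, which sets cholic acid content, and Cyp46a1, the brain cholesterol hydroxylase, were called lower at -1.70 ± 0.44 (adjusted p = 0.00384) and -1.24 ± 0.40 (adjusted p = 0.0151); the call for Cyp46a1 was lost without Control 3 or LPS 1.

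Cyp27b1, which makes active vitamin D, had 1 count in each Control library and 13, 11 and 20 in LPS. The ratio of the summed counts, 44 against 3, was 15.0, given with no test or interval, since LPS libraries alone made it a member. Its receptor Vdr was not called (0.49 ± 0.24, adjusted p = 0.103). Cyp21a1, the adrenal steroid hydroxylase, had no count in Control and 21, 24 and 30 in LPS, at least 25.5-fold higher when the Control group as a whole is set at the floor of 3 counts (no test, since it met the rule through its LPS libraries and 1 Sil library). Its transcripts share 21.3% of 50-base windows with the pseudogene Cyp21a2-ps, which had 6, 7 and 3 counts in LPS and 0 in Control, and its exons overlap Tnxa on the opposite strand, so reads of Cyp21a1 are uncertain in origin. Genes of this region moved both ways. C4b, a complement gene, stood at 234 to 357 CPM in Control and 695 to 718 CPM in LPS. Tnxb stood at 114 to 127 CPM in Control and 23.6 to 44.5 CPM in LPS. Cyp11a1, which starts steroid synthesis, had at most 6 counts in each Control and LPS library and was not called.

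Cyp26b1, which clears retinoic acid, stood at 32.8, 20.7 and 32.7 CPM in Control and 12.2, 4.51 and 4.24 CPM in LPS (-2.05 ± 0.76, adjusted p = 0.0347). The groups did not overlap, but the call was lost without Control 1, Control 3, LPS 2 or LPS 3. The retinoid pathway was called lower in 8 of 12 tested genes and higher in 1; Aldh1a1, a retinoic acid synthesising enzyme, changed by -1.51 ± 0.13 (adjusted p = 9.32e-08) and Crabp1, a retinoic acid carrier, by -4.78 ± 0.98 (adjusted p = 0.000631). Cyp51 stood at 44.0, 47.9 and 35.4 CPM in Control and 51.1, 52.6 and 49.6 CPM in LPS, and was not called (0.27 ± 0.13, adjusted p = 0.0925). Cyp20a1 was called at -0.24 ± 0.10 (adjusted p = 0.0465), a call lost in 13 of 14 other settings. A term for the library set ended the calls for Cyp2a5 (-1.72 ± 0.78, adjusted p = 0.0915), Cyp2j6 (-0.40 ± 0.17, adjusted p = 0.0759), Cyp3a13 (-0.80 ± 0.35, adjusted p = 0.0781) and Cyp26b1 (-1.79 ± 0.91, adjusted p = 0.128). So did the comparison within set A, which is the same fit as that without LPS 3, with all other groups kept.

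**Figure D2:**
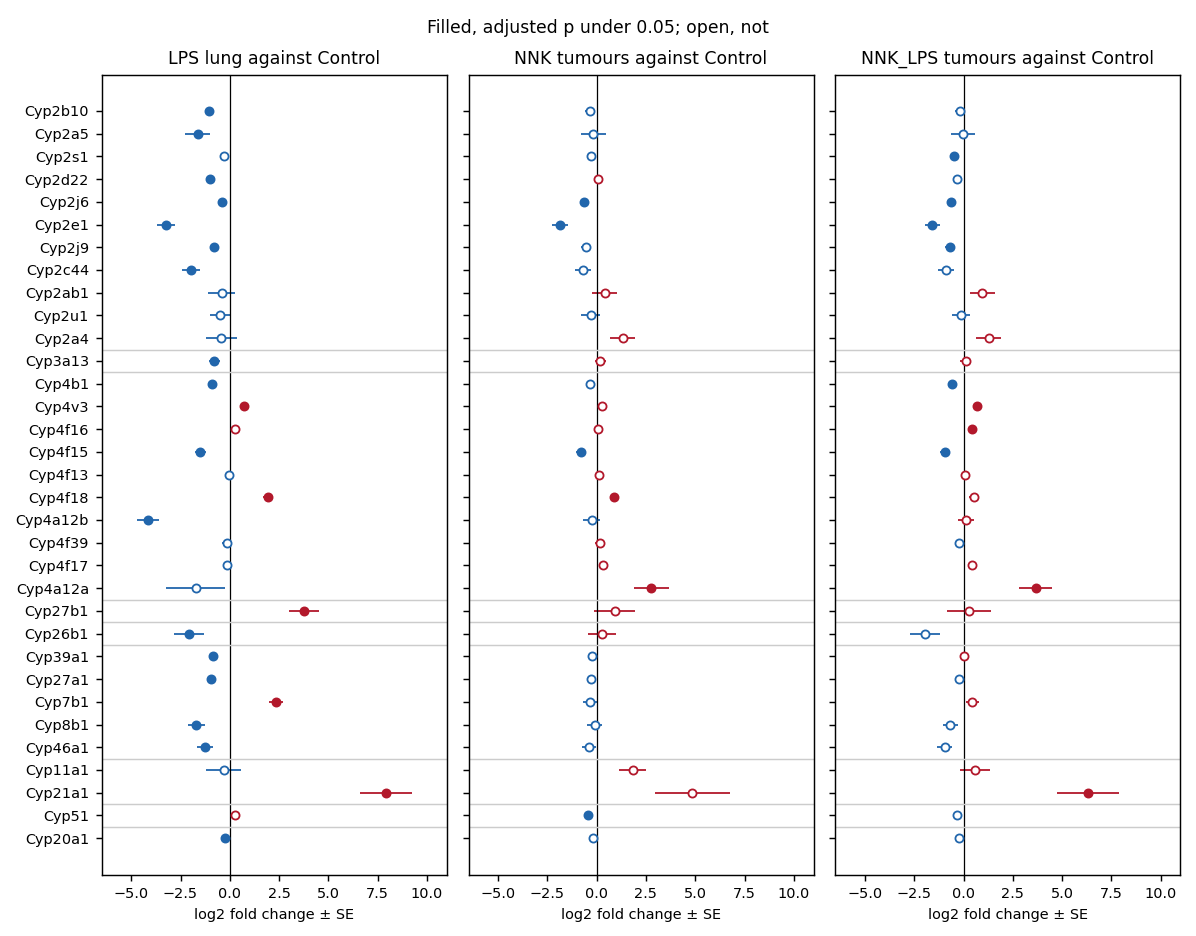
Log2 fold change with standard error of the 33 tested members against Control in LPS lung, NNK tumours and NNK_LPS tumours; filled points have an adjusted p under 0.05, red is higher and blue lower, and grey lines separate functional classes. The 3 comparisons share the Control libraries; LPS lung has 22 filled points, NNK tumours 6 and NNK_LPS tumours 10.

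**Figure D3:**
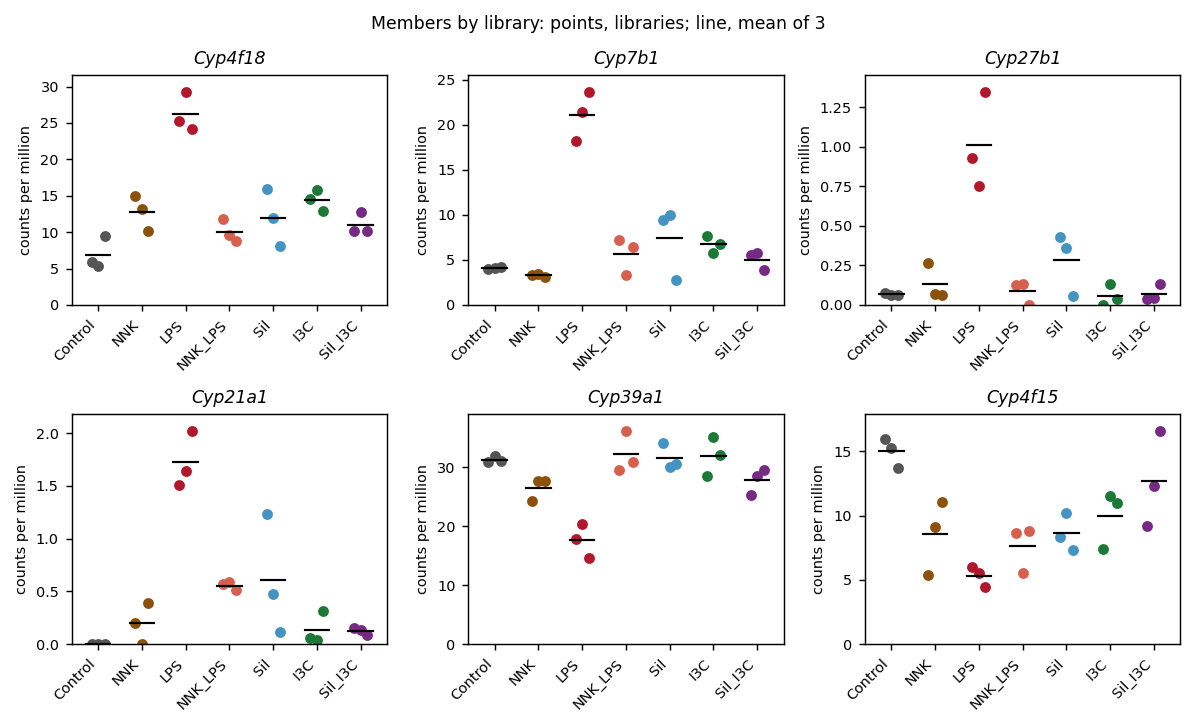
CPM of 6 members in each of the 21 libraries (points) with the mean of the 3 libraries of a group (line), on linear axes that start at 0. LPS libraries are highest for Cyp4f18, Cyp7b1, Cyp27b1 and Cyp21a1 and lowest for Cyp39a1.

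In NNK tumours, 6 of the 33 members were called against Control, 2 higher and 4 lower, against 13.1% of all genes (6.46% higher and 6.63% lower). Cyp2e1 was at 1.94, 4.17 and 1.51 CPM, below all Control libraries (-1.88 ± 0.40, adjusted p = 0.00928). Cyp2j6, an arachidonic acid epoxygenase, was at 9.83, 15.9 and 13.0 CPM against 19.7 to 20.9 CPM in Control (-0.65 ± 0.15, adjusted p = 0.0129). Cyp4f18 was higher, at 14.9, 13.2 and 10.1 CPM (0.89 ± 0.24, adjusted p = 0.0230), with neutrophil markers at 85.4 to 579 CPM summed and 7 of 8 called higher. Their part was not tested. Cyp51 (-0.42 ± 0.13, adjusted p = 0.0421), Cyp4f15 (-0.81 ± 0.26, adjusted p = 0.0494) and Cyp4a12a (2.77 ± 0.90, adjusted p = 0.0499) lay near the threshold. Without NNK 1, no member was called. The call for Cyp4f18 was also lost without Control 1 or Control 2, that for Cyp2j6 without Control 2, those for Cyp4a12a and Cyp4f15 without any 1 Control library, and that for Cyp51 without Control 1 or 2 or any 1 NNK library. Cyp4a12a was lost without NNK 3 as well, and Cyp4f15 without NNK 2; a term for the library set also ended the call for Cyp4a12a (2.77 ± 0.92, adjusted p = 0.0617). Club cell markers summed to 18800 to 27000 CPM in NNK, with 5 of 8 called lower, and heart muscle markers to 114 to 248 CPM, with 7 of 8 lower. Adipocyte markers summed to 28.9 to 73.3 CPM with 0 of 7 called, and alveolar type 2 markers to 47000 to 56300 CPM with 7 of 10 higher. Their part in the lower Cyp2e1 and Cyp2j6 was not tested.

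In NNK_LPS tumours, 10 members were called against the same Control libraries, 4 higher and 6 lower, against 24.6% of all genes (12.0% higher and 12.6% lower). Cyp4v3 stood at 103, 120 and 99.1 CPM (0.66 ± 0.10, adjusted p = 0.000457), above every Control library. Cyp2e1 was at 4.09, 3.08 and 2.16 CPM (-1.59 ± 0.39, adjusted p = 0.00848), and Cyp2j6 at 11.0, 12.1 and 16.0 CPM (-0.63 ± 0.15, adjusted p = 0.00646), both below every Control library. Cyp21a1 had 9 counts in each library, at least 8.19-fold above the Control floor. Cyp4f15 (-0.96 ± 0.26, adjusted p = 0.0135), Cyp4b1 (-0.59 ± 0.17, adjusted p = 0.0204), Cyp2s1 (-0.47 ± 0.15, adjusted p = 0.0318) and Cyp2j9 (-0.69 ± 0.23, adjusted p = 0.0341) were lower, and Cyp4f16 was higher (0.44 ± 0.12, adjusted p = 0.0127). Control and NNK_LPS lie in different library sets throughout. With a term for the set, none of the 10 calls held and 24 genes were called in all. LPS is the only group in both sets A and B, so between them this term rests on LPS 3 alone. Calls can then be lost through lower precision as well as through the set. The part of the library set in these calls therefore cannot be told apart from that of the group. Leaving out 1 library also ended calls: Cyp2e1 without Control 3, Cyp4f15 and Cyp4f16 without NNK_LPS 2, Cyp4b1 without Control 1, Control 2, NNK_LPS 1 or NNK_LPS 2, and Cyp2s1 and Cyp2j9 without any 1 Control library. Cyp2s1 was also lost without NNK_LPS 2 or NNK_LPS 3, and Cyp2j9 without NNK_LPS 1 or NNK_LPS 2. The call for Cyp2j9 ended as well without a filter on low counts and with only the compared groups in the fit. Club cell markers summed to 17500 to 26100 CPM in NNK_LPS and alveolar type 2 markers to 52900 to 72400 CPM, against 32600 to 39000 CPM in Control.

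Against NNK tumours, NNK_LPS tumours showed no called member, with 0.0951% of all genes called by edgeR. At an unadjusted p under 0.05 there were 6 members, against 16.0% of all genes, and DESeq2 called 1. All NNK libraries lie in set A and all NNK_LPS libraries in set B, so the group and the set cannot be told apart here. With a term for the set, no member and 0% of all genes were called. Cyp4f18, at 11.8, 9.64 and 8.76 CPM in NNK_LPS, overlapped its range in NNK (-0.34 ± 0.23, adjusted p = 0.490), and Cyp2e1 overlapped too (0.29 ± 0.41, adjusted p = 0.784). Cyp7b1 was at 3.34, 3.42 and 3.09 CPM in NNK and 7.17, 3.28 and 6.43 CPM in NNK_LPS (0.78 ± 0.36, adjusted p = 0.291).

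The effect of LPS in tumours was then set against its effect in lung by an interaction term, in which 10 members were called, 6 higher and 4 lower, against 25.1% of all genes (10.7% higher and 14.4% lower). Of the 17 members called lower with LPS in lung, 6 were called with a positive term: Cyp39a1 (1.10 ± 0.16, adjusted p = 0.000103), Cyp4a12b (4.52 ± 0.71, adjusted p = 0.000217), Cyp2e1 (3.52 ± 0.61, adjusted p = 0.000525), Cyp27a1 (0.96 ± 0.18, adjusted p = 0.000980), Cyp2b10 (1.22 ± 0.31, adjusted p = 0.00876) and Cyp4f15 (1.33 ± 0.37, adjusted p = 0.0148). Of the 5 called higher, Cyp4f18 (-2.27 ± 0.33, adjusted p = 0.000110) and Cyp7b1 (-1.58 ± 0.49, adjusted p = 0.0271) were called with a negative term, and Cyp4v3 was not called. The term holds the same LPS and Control libraries with the sign turned, and no member was called between NNK_LPS and NNK. Its sign in these members therefore tends to follow from their call in lung. Cyp27b1 and Cyp21a1 are also counted among the 10, but the rule chose them for their counts in LPS lung, so the sign of their terms is no finding. Neutrophil markers, which rose with LPS in lung, summed to 53.5 to 226 CPM in NNK_LPS and 85.4 to 579 CPM in NNK, and 7 of 8 had a negative term. Monocyte and macrophage markers of the interstitium had a negative term in 6 of 8 cases (185 to 231 CPM in NNK, 318 to 436 CPM in NNK_LPS). Club cell markers had a positive term in 5 of 8 cases (18800 to 27000 CPM in NNK, 17500 to 26100 CPM in NNK_LPS), and alveolar macrophage markers in 5 of 9, with 2 negative. Their part in the terms of the members was not tested. The term for Cyp7b1 lost its call with a term for the library set (-1.74 ± 0.60, adjusted p = 0.0547) and without Control 1, Control 2, NNK 1, LPS 3 or NNK_LPS 2.

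Tumours and normal lung under LPS were compared directly in NNK_LPS against LPS, where 14 members were called, 9 higher and 5 lower, against 38.2% of all genes (17.3% higher and 20.9% lower). Cyp39a1 was at 29.5, 36.2 and 31.0 CPM in these tumours, above the LPS libraries (0.87 ± 0.11, adjusted p = 1.64e-05), and Cyp4a12b at 5.85, 8.79 and 5.58 CPM, 19.2-fold above them (adjusted p = 1.89e-05). Cyp27a1 (0.68 ± 0.13, adjusted p = 0.000502), Cyp2d22, Cyp2b10, Cyp2e1, Cyp4f17 and Cyp3a13 were also higher, by 0.60 to 1.64 on the log2 scale. Cyp4a12a had 152 counts against 3, a ratio of 45.2 with a 95% counting interval of 15.2 to 222. The calls for Cyp2e1, Cyp3a13 and Cyp4f17 were lost without LPS 3, that for Cyp3a13 also without LPS 2, and that for Cyp4f17 also without NNK_LPS 2. Cyp4f18 (-1.38 ± 0.23, adjusted p = 0.000157), Cyp7b1 (-1.90 ± 0.34, adjusted p = 0.000307), Cyp27b1 (4 counts against 44) and Cyp51 were lower; Cyp51 was at 31.3, 32.4 and 38.1 CPM (-0.59 ± 0.13, adjusted p = 0.00172). Of 18 sterol synthesis genes, 6 were called lower and 1 higher in this comparison. Cyp27b1 and Cyp21a1 (27 counts against 75) are described with no test, as above. Within set B, from LPS 3 alone against NNK_LPS, 8 members were called, with the lone LPS library assumed to vary like the others. The calls lost there were Cyp2d22 (0.68 ± 0.26, adjusted p = 0.0758), Cyp3a13 (0.88 ± 0.41, adjusted p = 0.135), Cyp4f17 (0.69 ± 0.30, adjusted p = 0.110), Cyp51 (-0.53 ± 0.19, adjusted p = 0.0544), Cyp4a12a (4.51 ± 1.58, adjusted p = 0.0509) and Cyp21a1, and a term for the set also ended those of Cyp2d22, Cyp3a13, Cyp4f17 and Cyp21a1. Alveolar type 2 markers were higher in these tumours in 8 of 10 cases (52900 to 72400 CPM summed, against 23100 to 26300 CPM in LPS), alveolar macrophage markers in 7 of 9 with 1 lower (1160 to 1920 CPM, against 651 to 1060 CPM), and club cell markers in 4 of 8 with 1 lower. Neutrophil markers were lower in 6 of 8 cases, and monocyte and interstitial macrophage ones in 7 of 8 (318 to 436 CPM, against 933 to 1030 CPM). Their part in these differences was not tested.

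Cyp4a12a had its own pattern. It held 2, 6 and 3 counts in Control, 17, 13 and 48 in NNK, and 54, 68 and 30 in NNK_LPS. Its share of the counts of the pair was 3.86% in Control, 25.4% in NNK, 31.9% in NNK_LPS and 32.2% in Sil. It was 17.6% in I3C, 16.9% in Sil_I3C and 16.7% in LPS, the last from 3 counts against 15 of Cyp4a12b. By library it ran from 2.61% to 5.77% in Control, 13.3% to 38.7% in NNK and 23.4% to 36.7% in NNK_LPS. The Sil_I3C libraries ran from 4.26% to 30%. Fitted alone, Cyp4a12a was higher in NNK_LPS than in Control (3.65 ± 0.86, adjusted p = 0.00666), while Cyp4a12b was not called (0.14 ± 0.41, adjusted p = 0.835). Summed before the fit, the pair was not called in NNK (0.10 ± 0.45, adjusted p = 0.899) or in NNK_LPS (0.64 ± 0.45, adjusted p = 0.309). The 98.5% identity shown above bears on this split. Cyp4a14, their relative outside the rule and a known target of the fatty acid receptor Ppara, had 0 counts in every Control and LPS library and 7, 12 and 9 in NNK_LPS.

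Among the diets, silibinin gave no called member against NNK_LPS in edgeR or DESeq2, with 0% of all genes called by edgeR. At an unadjusted p under 0.05 there was 1 member, against 3.67% of all genes. Indole-3-carbinol, a compound of cruciferous vegetables whose acid products activate the aryl hydrocarbon receptor, gave 2 called members, both higher, of which Cyp2a4 was chosen through its I3C libraries, against 2.02% of all genes (1.22% higher and 0.793% lower). Cyp2e1 was at 12.5, 10.5 and 6.97 CPM in I3C against 4.09, 3.08 and 2.16 CPM in NNK_LPS, with no overlap (1.68 ± 0.39, adjusted p = 0.0388). Cyp2a4 had 18, 33 and 44 counts in I3C and 10, 4 and 5 in NNK_LPS, given with no test. Its near-identical relative Cyp2a5 was at 220, 409 and 256 CPM against 175, 33.1 and 46.4 CPM. Every I3C library was above every NNK_LPS library, but Cyp2a5 was not called (1.80 ± 0.63, adjusted p = 0.121). Cyp2a4 made up 0.462% of the counts of the pair in NNK_LPS and 0.484% in I3C, and the summed pair gave the same size (1.80 ± 0.63, adjusted p = 0.120).

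The call for Cyp2e1 with I3C was lost without I3C 1, 2 or 3, without NNK_LPS 2 or 3, and with a term for the library set. Within set B, I3C 1 against NNK_LPS gave 1.99 ± 0.50 for Cyp2e1 (adjusted p = 0.0946), with the lone I3C library assumed to vary like the others. Markers of tissue outside the lung epithelium moved with these genes. Heart muscle markers were called higher with I3C in 8 of 8 cases (357 to 513 CPM summed, against 82.1 to 153 CPM in NNK_LPS), and adipocyte markers summed to 77.8 to 154 CPM against 8.79 to 49.4 CPM, with 0 of 7 called. Club cell markers summed to 27300 to 37000 CPM with I3C, against 17500 to 26100 CPM, with 1 of 8 called higher and 0 lower. Among them, Bpifa1 stood at 415, 428 and 480 CPM with I3C and 277, 3.41 and 3.76 CPM in NNK_LPS. Scgb3a1 stood at 399, 306 and 431 CPM with I3C and 259, 2.95 and 11.7 CPM in NNK_LPS. NNK_LPS 1 was the highest of its group for both, as for Cyp2a5. Ciliated cell markers summed to 576 to 715 CPM, against 305 to 486 CPM, with 2 of 8 called higher. Alveolar type 2 markers were called lower in 5 of 10 cases (39600 to 40300 CPM, against 52900 to 72400 CPM). Their part in the higher Cyp2e1 and Cyp2a4 was not tested. In the retinoid pathway, Aldh1a1 was higher with I3C (0.88 ± 0.13, adjusted p = 0.00287), as was Aldh1a3, also a retinoic acid synthesising enzyme (1.83 ± 0.41, adjusted p = 0.0362).

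With both agents, no member was called against NNK_LPS by edgeR (1.36% of all genes), 11 had an unadjusted p under 0.05 (16.5% of all genes), and DESeq2 called 5. Without NNK_LPS 3, edgeR called 5. Cyp2e1 was at 2.63, 2.19 and 1.86 CPM, within or below the range of NNK_LPS, and Cyp2a5 at 102, 103 and 48.4 CPM, inside it. Cyp26b1 stood at 29.0, 23.9 and 42.8 CPM, above the 13.9, 3.80 and 4.61 CPM of NNK_LPS, without a call (2.10 ± 0.75, adjusted p = 0.175). The NNK group of Cyp26b1 was uneven, at 8.69, 12.0 and 82.6 CPM. Cyp4a12a (-2.93 ± 0.75, adjusted p = 0.0627) and Cyp4a12b (-1.73 ± 0.43, adjusted p = 0.0551) missed the threshold singly, while their sum passed it (-2.03 ± 0.47, adjusted p = 0.0393). All Sil_I3C libraries lie in set C and all NNK_LPS libraries in set B, so the group and the set cannot be told apart here; with a term for the set, edgeR called 2 genes in place of 214. Set against I3C alone, both agents gave no called member and 0% of all genes called by edgeR. At an unadjusted p under 0.05 there were 8 members, against 10.7% of all genes, and DESeq2 called 3. Cyp2e1 differed there by -2.16 ± 0.39 (adjusted p = 0.127) and was not called.

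**Figure D4:**
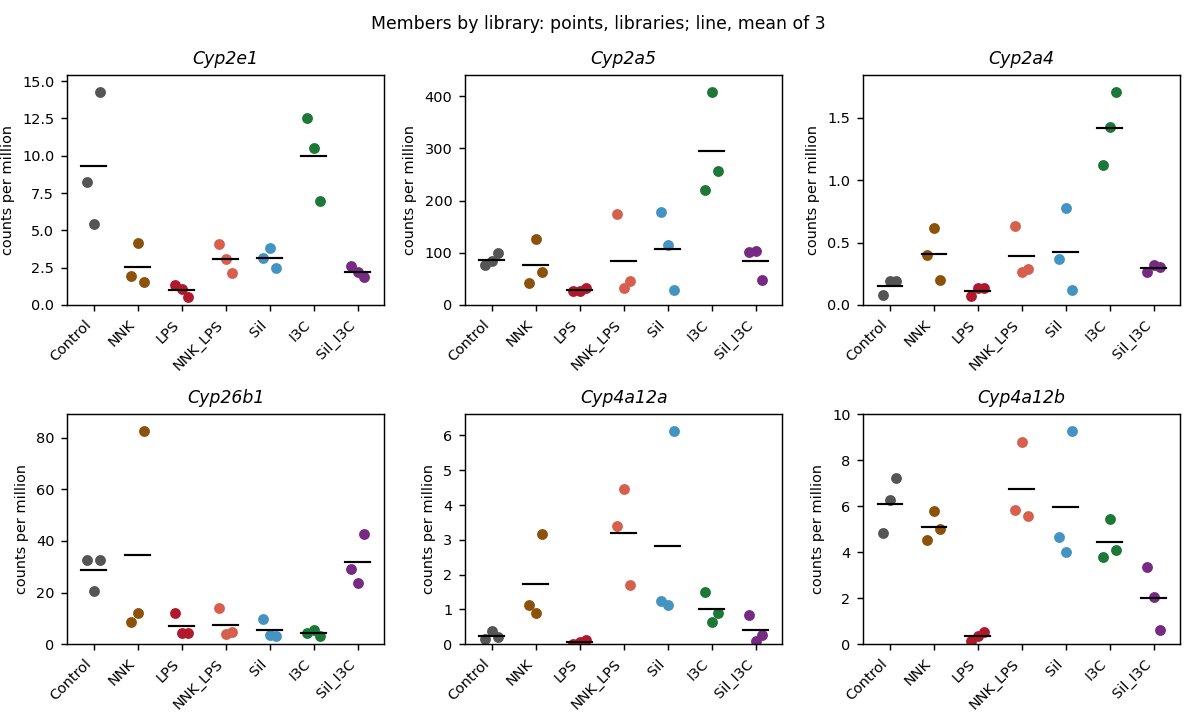
CPM of 6 members in each of the 21 libraries (points) with the mean of the 3 libraries of a group (line), on linear axes that start at 0. I3C libraries lie above NNK_LPS for Cyp2e1, Cyp2a5 and Cyp2a4, 1 NNK library stands apart for Cyp26b1 at 82.6 CPM, and LPS libraries are lowest for Cyp4a12b.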

How the data were processed

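Lung RNA of 21 mouse libraries was sequenced from Illumina TruSeq kit (version 2) libraries, per the labels' protocols. The authors deposited raw counts per gene symbol; the genome build was mm10, per the submitters' processing notes, and the sources used here name no aligner, counter, annotation or strand setting, so reads of genes that overlap on opposite strands (Cyp4f18 and Cyp51 among them) cannot be told apart. Groups came from the treatment labels and replicate numbers from the description labels. Counts were fitted with edgeR 4.0.16 in R 4.3.3 (limma 3.58.1): filterByExpr with a minimum count of 10, TMM scaling, robust glmQLFit over all 7 groups (14 residual degrees of freedom), glmQLFTest, and Benjamini-Hochberg adjustment over 15770 genes. The same fit was tested on simulated data. DESeq2 1.42.0 was an alternative, with other scaling, filters, groups, a replicate block, a term for the library set, and each library left out.

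The 35 members and all lists were chosen with earlier results of these data known. Named members were the up to 5 most abundant of each role class, the up to 4 called ones of a class with the largest change among those at 1 CPM or more in some group, the up to 6 with the smallest adjusted p per comparison, and those at the edge of the count rule, 28 in all; others named in passing were chosen after their values were seen. The comparison of Sil_I3C with I3C, the fits within a library set and the summed paralog counts were also chosen after seeing the data. Gene positions, exon lengths and transcripts are of GENCODE vM21 (GRCm38); promoters are of RefSeq (GRCm38.p6). Counting intervals and floors (3 counts) cover counting error only. Replicate pairs differed by more than sampling noise, with a chi-square per gene of 5.06 to 57.4, so none was merged.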

Additional observations from a re-analysis of the deposited data

Results flagged for a closer look

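An edgeR interaction term (log2 scale, adjusted over all genes) compared the response to LPS between tumours and normal lung. It was called for 10 members, Cyp27b1 and Cyp21a1 among them. The terms were 1.10 for Cyp39a1, -2.27 for Cyp4f18, 4.52 for Cyp4a12b, 3.52 for Cyp2e1, 0.96 for Cyp27a1, 1.22 for Cyp2b10, 1.33 for Cyp4f15, -4.42 for Cyp27b1, -6.48 for Cyp21a1 and -1.58 for Cyp7b1. A positive term means that the log2 change from NNK to NNK_LPS lay above that from Control to LPS. It need not mean a higher value with LPS in tumours. From NNK to NNK_LPS, Cyp2e1 changed by 0.29 ± 0.41 and Cyp4f15 by -0.16 ± 0.26, and no member was called. Cyp27b1 and Cyp21a1 would not have met the rule without their LPS libraries, so their negative terms decide nothing about a difference. The terms of the other members share the LPS and Control libraries with their call in lung, so their signs tend to follow from it. NNK and NNK_LPS lie in different library sets throughout. With a term for the set, 9 of the 10 members stayed called and Cyp7b1 did not. That fit ties sets A and B through LPS 3 alone, the only library of its group in set B. It therefore cannot settle the part of the set in these terms.

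Some symbols outside the members held counts although Control had none. Cyp2c40, a CYP2C enzyme of which 60.3% of 50-base windows also occur in other genes, had 19 summed counts in NNK_LPS. Cyp4a14 had 28 summed counts in NNK_LPS. The pseudogene Cyp21a2-ps had 17 summed counts in Sil_I3C (0.115, 0.411 and 0.216 CPM) and 16 in LPS (0.43, 0.478 and 0.202 CPM). The Sil_I3C libraries were deeper, at 21.4 to 25.3 M counts against 14.7 to 15.7 M in LPS.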

How the results depend on the processing

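Of 444 checks of a called member with 1 library left out, 351 kept the call and 93 lost it. Under the other settings 421 of 492 kept it and 71 lost it, and none reversed in either. The 492 include 22 checks within set A, which repeat the fit without LPS 3. The number of members called, leaving out each library in turn, ranged from 0 to 6 for NNK against Control, 16 (without Control 3) to 21 for LPS against Control, 5 (without NNK_LPS 2) to 10 for NNK_LPS against Control, 0 to 0 for NNK_LPS against NNK, 10 to 17 for NNK_LPS against LPS, 8 to 13 for the interaction, 0 to 0 for Sil, 0 to 3 for I3C, 0 to 5 for Sil_I3C and 0 to 0 for Sil_I3C against I3C. Without a filter on low counts, NNK against Control gave 3 members and I3C gave 1. With a term for the library set, NNK_LPS against Control gave 0 and I3C gave 0. DESeq2 gave 1 for NNK_LPS against NNK, 4 for I3C, 5 for Sil_I3C and 3 for Sil_I3C against I3C. With only the compared groups in the fit, I3C gave 0. Within set B, NNK_LPS against LPS gave 8 and I3C gave 0. The cause of these differences was not tested. Genes with few counts, such as Cyp21a1 and Cyp27b1, are limited by depth. No alternative scaling or left-out library moved the median of all genes by more than 0.043 (log2).

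The replicate numbers of the description labels were checked as a pairing; the titles carry other numbers in most groups, which were not tried. Correlations of same-numbered libraries ran from -0.358 to 0.463 (63 pairs), and 11 of 21 libraries correlated best with their own number, so the numbers were not taken as pairs. With the number as a replicate block, I3C gave 1 member in place of 2; the other counts stayed within 1.5 times.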

Other observations

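Among other members not described above, Cyp4f39, the mouse counterpart of a human skin ceramide enzyme, stood at 3.46, 3.61 and 6.49 CPM in NNK_LPS and 7.56, 7.44 and 9.52 CPM in Sil_I3C, with no overlap but without a call (0.85 ± 0.23, adjusted p = 0.0740). Cyp2ab1, a little studied CYP2 member, ranged from 0.404 to 3.28 CPM over the series and was called in no comparison.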
